A study of Drosophila melanogaster with 32 samples.

Results

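The late libraries of the Drosophila melanogaster cell lines R5 and R1 were compared here. Line and passage came from the sample titles, and passages 16, 17 and 19 gave 3 libraries of R5 and 3 of R1, 6 of the 32 libraries of the series. The series followed 3 lines, R1, R4 and R5, by RNA sequencing from passage 2 onward, a passage being one splitting of a culture into fresh medium. It is known from the published study that such lines were set up as primary cultures of embryos expressing an activated form of the small GTPase Ras. R5 and R1 would then share this transgene. The genotype of single lines is not given in the sources used here, and no label names a tissue. Cells were kept in serum-containing Schneider's medium. TRIzol RNA went into ScriptSeq libraries after removal of ribosomal RNA with a mammalian kit.

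Each line is 1 culture sampled at successive passages, so the p-values below measure the spread between passages of a culture and not between independent cultures. In the main fit this spread was estimated over 31 libraries in 9 groups of line and stage, and not from the 6 late libraries alone. Total counts were 9885845, 8816902 and 9055344 in R5 at passages 16, 17 and 19, against 11743443, 12928104 and 11741947 in R1, so all R5 libraries were shallower. Log2 counts correlated at 0.984 to 0.996 within a line and 0.947 to 0.956 between the lines. R5 at passage 19 stood furthest from its own line, with an SD of log2 differences of 0.42 from the mean of the other R5 libraries. The same SD was 0.31 for R5 at passage 16 and 0.34 at passage 17, against at most 0.25 for a library of R1. Each R5 library thus stood further from its line than any R1 library. The share of counts in mitochondrial genes was 5.34 to 5.95% in R5 and 5.12 to 5.66% in R1.

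Embryonic fly cells carry their history in the genes of pattern formation. Wnt ligands such as Wingless are secreted proteins that bind Frizzled and Arrow receptors and instruct neighbouring cells. Hox genes record the segment a cell came from, and Notch is a receptor whose cleaved tail switches on the Enhancer of split genes. Activated Ras drives proliferation through the ERK kinase, and the transcription factors of muscle precursors and of the nervous system mark lineages that such cultures can hold.

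At the late passages R5 and R1 differed in 3070 of 9177 tested genes, which is 33.5% of them (edgeR quasi-likelihood F test, Benjamini-Hochberg adjusted p below 0.05). Of these 1585 were higher in R5, 17.3% of the tested genes, and 1485 were lower, 16.2%. A difference of at least 2-fold was called for 1138 genes, 12.4%, with 663 higher and 475 lower in R5. The normalised read counts, given as CPM, the count of a gene relative to the TMM-scaled size of its library, did not overlap between the 3 R5 and the 3 R1 libraries for 2972 of the 3070 called genes, against 51.8% of all tested genes. For every called gene whose late values are given below other than Cht2, the 3 R5 and the 3 R1 libraries did not overlap. The median log2 difference of all tested genes, R5 minus R1, was 0.02. In bulk RNA, fewer cells of a type and less RNA per cell cannot be told apart, and this holds for each difference below.

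Few of these differences were called in the first passages. At passages 2 to 4 the same fit called 411 genes between R5 and R1, 4.48% of those tested, with 218 lower in R5, 2.38%, and at the intermediate passages 3159, 34.4%. Of the 3070 late calls, 254 were called with the same sign at the early stage, which is 8.27% of the late and 61.8% of the early calls, and 18 had the opposite sign. With the intermediate stage 1300 calls were shared with the same sign, 42.3% of the late and 41.2% of the intermediate calls, and 116 had the opposite sign. The change of the difference between the lines from early to late, tested as an interaction, was called for 1044 genes, 11.4%. The early count moved by over 1.5 times with single libraries left out, and was 187 without R5 at passage 3, 196 without R5 at passage 4, 135 without R1 at passage 2 and 248 without R1 at passage 3. The interaction count was 694 without R1 at passage 17 and 674 without R1 at passage 3. The intermediate stage is not matched for passage, since it holds passages 6 to 8 of R5 and 5 to 11 of R1.

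**Figure D1:**
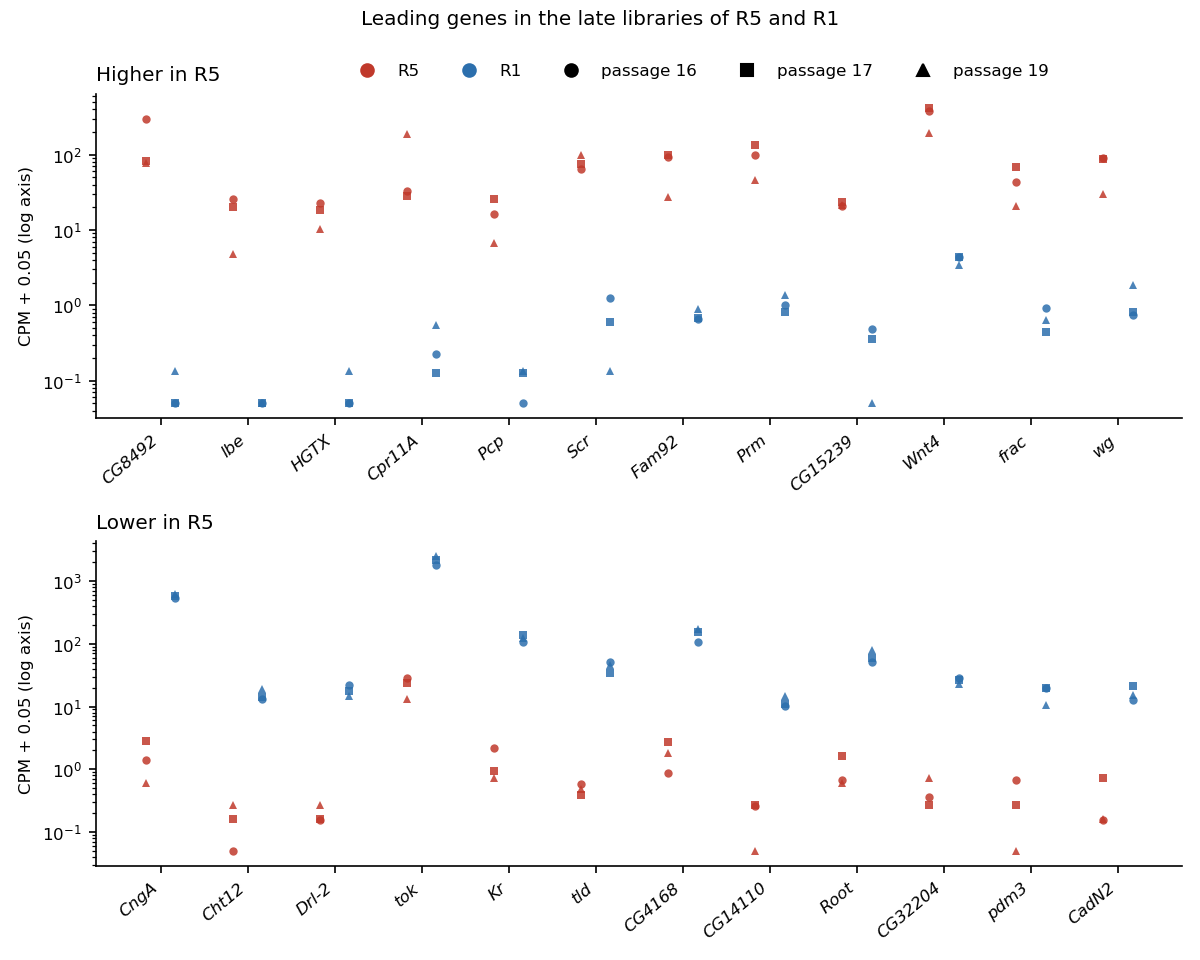
CPM plus 0.05 on a log axis for the 12 highest and 12 lowest log2 differences, among called genes without overlap and with at least 10 CPM in the higher line, between R5 (red, left) and R1 (blue, right), 1 symbol per late library. R5 and R1 do not overlap in any of the 24 genes, and R5 at passage 19 is the lowest of the R5 libraries for 9 of the 12 genes higher in R5.

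Wnt ligands were among the genes with the highest differences. wg, which encodes Wingless, had 91.0, 86.3 and 29.9 CPM in R5 at passages 16, 17 and 19, against 0.698, 0.776 and 1.84 CPM in R1. The R5 libraries were high throughout, with passage 19 the lowest, and the groups were far apart (log2 difference 5.96 ± 0.97 SE, adjusted p = 5.09e-05). Wnt4, a second ligand that lies close to wg on 2L, had 375, 411 and 197 CPM in R5 against 4.27, 4.34 and 3.34 CPM in R1 (log2 difference 6.36 ± 0.49 SE, adjusted p = 1.91e-09). Wnt6, the neighbour of wg in annotation order, had 45.1, 48.0 and 24.5 CPM in R5 against 1.05, 0.698 and 1.84 CPM in R1 (log2 difference 5.03 ± 1.04 SE, adjusted p = 6.50e-04). Notum, a secreted enzyme that inactivates Wnt proteins and is a known target of Wingless signalling, had 49.1, 28.4 and 14.3 CPM in R5 against 0.959, 1.86 and 1.17 CPM in R1 (log2 difference 4.50 ± 1.20 SE, adjusted p = 0.00554). Both lines expressed these ligands at the start. At passages 2 to 4 wg averaged 55.1 ± 3.63 CPM in R5 and 83.5 ± 28.2 CPM in R1 (SD, n = 3 each), and Wnt4 averaged 264 ± 51.4 CPM in R5 and 342 ± 144 CPM in R1. The change of the difference from early to late had an adjusted p of 7.53e-04 for wg and 1.51e-07 for Wnt4 in the interaction of the edgeR fit. In R1 wg had 95.4 CPM at passage 2, 20.9 CPM at passage 5 and 1.27 CPM at passage 11, while the R5 libraries of passages 2 to 8 lay between 36.8 and 58.5 CPM. The late libraries of R4, the remaining line of the series, had 1.08, 1.19 and 1.22 CPM of wg and 38.6, 38.9 and 33.7 CPM of Wnt4.

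**Figure D2:**
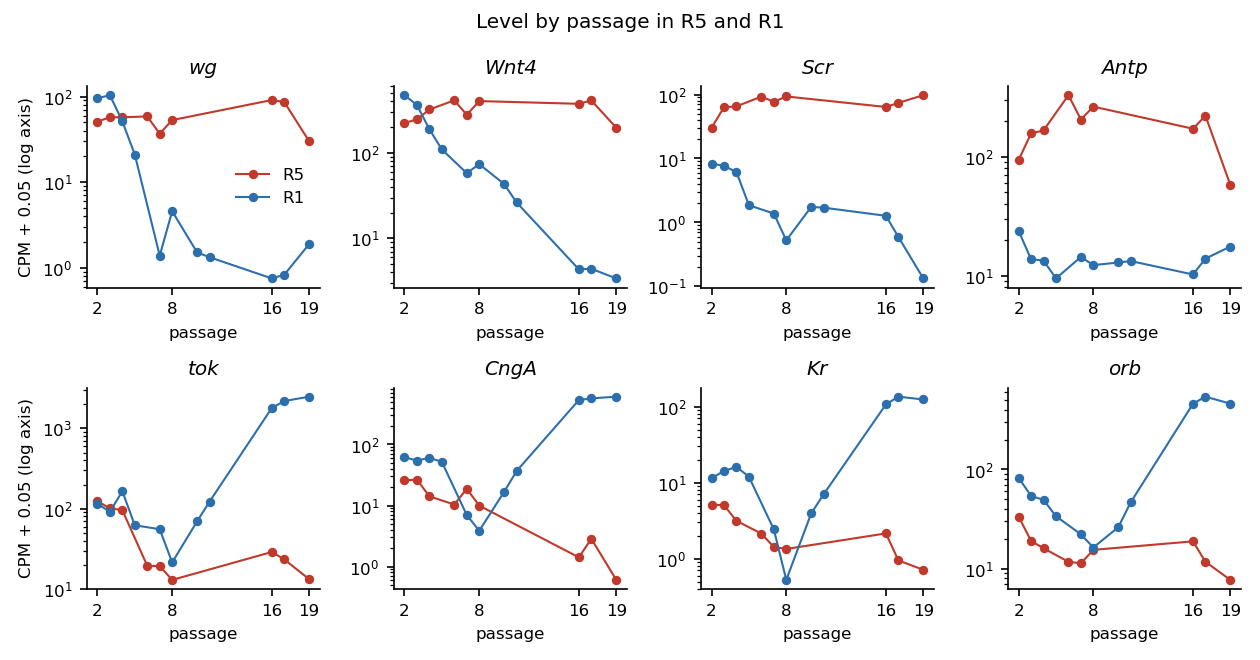
CPM plus 0.05 on a log axis against passage number for 8 genes in R5 (red) and R1 (blue), 1 point per library. wg and Wnt4 are lower in R1 at passage 16 than at passage 2, Scr and Antp are higher in R5 from the first passages, and tok, CngA, Kr and orb are higher in R1 at passage 16 than at passage 8.

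Other genes of the Wnt pathway differed in both directions. arr, the Arrow co-receptor, had 84.4, 70.8 and 62.1 CPM in R5 against 161, 176 and 132 CPM in R1 (log2 difference -1.11 ± 0.33 SE, adjusted p = 0.0106). The cell surface proteoglycans dally and dlp, which hold and spread Wnt and Dpp proteins, were higher in R5. dally had 1037, 1019 and 991 CPM in R5 against 404, 449.8 and 538 CPM in R1 (log2 difference 1.13 ± 0.16 SE, adjusted p = 9.04e-06), and dlp 99.9, 117 and 127 CPM in R5 against 53.7, 58.9 and 69.0 CPM in R1 (log2 difference 0.92 ± 0.21 SE, adjusted p = 0.00174). Cow, a secreted Wingless-binding protein, had 1.68, 4.15 and 3.65 CPM in R5 against 12.2, 12.1 and 14.2 CPM in R1 (log2 difference -2.02 ± 0.37 SE, adjusted p = 1.61e-04), and its groups did not overlap either. Over the list of Wnt, Hedgehog and Dpp genes 9 of 44 tested members were higher in R5 and 15 lower, with a median log2 difference of -0.16. The shares to set beside this and every count of listed genes or markers below are 17.3% higher and 16.2% lower over all tested genes. A list near these shares shows nothing particular to its genes.

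Several homeodomain genes separated the lines. lbe, a Ladybird factor of muscle and heart precursors, had 25.8, 20.4 and 4.76 CPM in R5 and no read in any late library of R1. Against the limit of 3 counts over the R1 group, it was at least 208-fold higher in R5 (adjusted p = 2.31e-06). Its paralogue and neighbour lbl had 196 reads in the R5 libraries and 2 in those of R1, a ratio of depth-scaled counts of 129.6 with a counting interval of 35.4 to 1078. HGTX, a homeodomain factor of the nervous system related to the Nkx6 genes of vertebrates, had 22.8, 18.6 and 10.2 CPM in R5 and 1 read in R1, a ratio of 628 with a counting interval of 112 to 24865. The only R1 read of HGTX was at passage 19. Without that library the fitted log2 difference was 10.61, or 1561-fold, against 8.81 with all libraries. No R1 read was then left, so this fitted value is no bound. At the early passages lbe averaged 7.31 ± 2.27 CPM in R5 and 6.72 ± 1.17 CPM in R1 (SD, n = 3 each), so both lines had reads of it then. R4 had 1 late library with lbe reads, at 0.102 CPM.

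Other members of the homeodomain and patterning list went the other way. Kr, the zinc finger factor Krüppel, which also marks a subset of muscle founders, had 2.10, 0.897 and 0.664 CPM in R5 against 107, 136 and 124 CPM in R1 (log2 difference -6.62 ± 0.62 SE, adjusted p = 3.57e-08). toy, one of the Pax6 genes that start eye development, had 4.09, 1.23 and 2.99 CPM in R5 against 129.6, 156 and 126 CPM in R1 (log2 difference -5.61 ± 0.62 SE, adjusted p = 4.11e-07). The second Pax6 gene, ey, on the same small chromosome 4, had 5.25, 1.57 and 3.99 CPM in R5 against 97.0, 126 and 138 CPM in R1 (log2 difference -5.05 ± 0.57 SE, adjusted p = 6.38e-07). pdm3, a POU factor of neurons, had 0.630, 0.224 and 0 CPM in R5 against 19.5, 19.8 and 10.4 CPM in R1 (log2 difference -5.78 ± 0.96 SE, adjusted p = 6.57e-05). In each of these R5 was low in all 3 libraries. Without R5 at passage 16 the difference grew to 155-fold for Kr and 136-fold for pdm3. Over the whole list, 15 of 88 tested members were higher in R5 and 24 lower, against 17.3% and 16.2% of all tested genes. The median of the list was -0.21.

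The Hox genes Scr, Antp and Dfd were higher in R5 at the late passages, and were also called higher at passages 2 to 4. Scr, the Hox gene of the labial and first thoracic segments, had 63.8, 74.0 and 97.7 CPM in R5 against 1.22, 0.543 and 0.0835 CPM in R1 (log2 difference 6.99 ± 0.60 SE, adjusted p = 1.25e-08). Antp, the thoracic Hox gene, had 171, 219.8 and 57.6 CPM in R5 against 10.2, 13.9 and 17.5 CPM in R1 (log2 difference 3.43 ± 0.45 SE, adjusted p = 4.34e-06), with R5 at passage 19 lower than the other R5 libraries but above all R1 libraries. Dfd, a head Hox gene named after its values were seen, had 44 reads in R5 and 3 in R1, a ratio of 19.4 with a counting interval of 6.22 to 97.7, and R1 at passage 17 had none of them. Without R1 at passage 16 its fitted difference was 31.3-fold. At passages 2 to 4 Scr averaged 52.9 ± 19.7 CPM in R5 and 7.33 ± 1.12 CPM in R1 (adjusted p = 5.82e-04 in the edgeR fit, SD over n = 3 each), and Antp 138 ± 39.2 CPM in R5 and 17.0 ± 5.93 CPM in R1 (adjusted p = 3.23e-04). The difference in Scr grew further by the late stage (interaction adjusted p = 6.54e-04 in edgeR), and for Antp the interaction gave 0.732. Dfd averaged 9.10 ± 1.23 CPM in R5 and 1.53 ± 0.445 CPM in R1 at passages 2 to 4 (adjusted p = 0.0135 in edgeR, SD over n = 3 each). In R4 the late libraries had 37.8, 45.5 and 39.1 CPM of Scr and 23.5, 27.3 and 30.1 CPM of Antp. hth, the Hox cofactor Homothorax, was lower in R5, with 349.7, 389 and 334 CPM against 1329, 1398 and 1323 CPM in R1 (log2 difference -1.92 ± 0.22 SE, adjusted p = 8.85e-07). tsh, the trunk factor Teashirt, had 274, 186 and 111 CPM in R5 against 64.5, 80.2 and 73.1 CPM in R1 (log2 difference 1.39 ± 0.36 SE, adjusted p = 0.00454). In the list of Hox genes and cofactors 4 of 11 tested members were higher in R5, namely Scr, Antp, Dfd and tsh, and 2 lower, with a median of 1.39. Without R1 at passage 16 the difference in Scr was 237-fold.

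A second group of genes was low in R5 and high in R1. tok, or Tolkin, a secreted metalloprotease of the BMP1 family, was among the abundant genes of R1, with 28.9, 23.3 and 13.2 CPM in R5 against 1795, 2189 and 2482 CPM in R1 (log2 difference -6.63 ± 0.52 SE, adjusted p = 2.35e-09). Its neighbour and paralogue tld, or Tolloid, which cleaves the Dpp inhibitor Sog, had 0.525, 0.336 and 0.443 CPM in R5 against 51.2, 33.9 and 45.8 CPM in R1 (log2 difference -6.61 ± 0.47 SE, adjusted p = 3.74e-10). The next gene on the other side of tok, CG13630, went the other way and was called higher in R5 (log2 difference 0.49, adjusted p = 0.0103 in edgeR). tok and tld lie side by side and both differed in the same direction. At the early passages tok averaged 107 ± 14.7 CPM in R5 and 124 ± 37.4 CPM in R1 (SD, n = 3 each), and the interaction had an adjusted p of 3.72e-07 in edgeR. The late libraries of R4 had 629.9, 664 and 1034 CPM of tok and 25.8, 30.9 and 49.2 CPM of tld.

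CngA, a subunit of a cyclic nucleotide-gated channel, had the lowest difference of the 24 leading genes, which all had at least 10 CPM in the higher line, with 1.36, 2.80 and 0.554 CPM in R5 against 536, 569 and 608 CPM in R1 (log2 difference -8.50 ± 0.76 SE, adjusted p = 1.86e-08). The adjacent gene CG15708 had no read in late R5 and 39 reads in R1, at least 9.83-fold lower in R5 against the limit of 3 counts over the R5 group. orb, the RNA-binding protein of the CPEB family known from the germline, had 18.8, 11.7 and 7.64 CPM in R5 against 461, 543 and 461 CPM in R1 (log2 difference -5.26 ± 0.47 SE, adjusted p = 1.86e-08). The late libraries of R4 had 321, 314 and 406 CPM of CngA and 483, 475 and 597 CPM of orb. Drl-2, a Wnt5 receptor of the Ryk family, had 0.105, 0.112 and 0.221 CPM in R5 against 21.8, 17.4 and 14.7 CPM in R1 (log2 difference -6.84 ± 0.74 SE, adjusted p = 2.55e-07). drl, the related receptor Derailed, had 15.4, 18.1 and 14.4 CPM in R5 against 98.0, 124 and 139 CPM in R1 (log2 difference -2.92 ± 0.48 SE, adjusted p = 6.04e-05). Root, the ciliary rootlet protein, had 0.630, 1.57 and 0.554 CPM in R5 against 51.9, 58.6 and 80.5 CPM in R1 (log2 difference -6.11 ± 0.45 SE, adjusted p = 6.67e-10). Here R4 was low too, with 1.73, 2.26 and 1.63 CPM. Cht12, a chitinase, had 3 reads in R5 and 559 in R1, so R1 was higher by a ratio of 141 with a counting interval of 48.0 to 685. CG4168, CG14110 and CG32204, uncharacterised genes, were 82.0-fold, 75.8-fold and 63.0-fold lower in R5. Leaving out R5 at passage 17 raised the difference to 583-fold for CngA and 105-fold for Root, and leaving out R5 at passage 19 raised that of Cht12 to 234-fold.

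The remaining leading genes of R5 included proteins of cuticle, muscle and cilia. Cpr11A, a cuticle protein of the Rebers and Riddiford family, had 32.4, 28.2 and 189.9 CPM in R5 against 0.174, 0.0776 and 0.501 CPM in R1 (log2 difference 8.33 ± 0.99 SE, adjusted p = 1.27e-06). Most of its level came from passage 19, and without that library the difference was 118-fold; without R1 at passage 19 it was 613-fold. Pcp, a pupal cuticle protein whose gene lies within an intron of Gart, had 444 reads in R5 and 2 in R1, a ratio of 294 with a counting interval of 80.8 to 2432. Gart itself differed by -0.15 on the log2 scale (adjusted p = 0.426 in edgeR). Prm, which encodes the thick filament protein paramyosin, had 99.2, 135 and 45.5 CPM in R5 against 0.959, 0.776 and 1.34 CPM in R1 (log2 difference 6.50 ± 0.81 SE, adjusted p = 2.09e-06). Fam92, a protein of the ciliary base, had 92.7, 99.7 and 27.2 CPM in R5 against 0.611, 0.620 and 0.835 CPM in R1 (log2 difference 6.71 ± 0.61 SE, adjusted p = 2.91e-08). frac, a secreted matrix protein, had 43.2, 68.4 and 20.8 CPM in R5 against 0.872, 0.388 and 0.584 CPM in R1 (log2 difference 6.16 ± 0.96 SE, adjusted p = 3.20e-05). Prm, Fam92 and frac were already higher in R5 at passages 2 to 4, with adjusted p of 9.99e-04, 6.30e-06 and 0.00191 in the edgeR fit. The uncharacterised gene CG8492 had 301, 82.9 and 77.8 CPM in R5 and 1 read in R1, a ratio of 5703 with a counting interval of 1023 to 225309. Its fitted log2 difference was 11.97 with all libraries and 11.03, or 2095-fold, without R5 at passage 16. Without R1 at passage 19, which holds the only R1 read, it was 13.77, or 13995-fold, and this fitted value is no bound. CG15239 had 20.7, 23.3 and 21.1 CPM in R5 against 0.436, 0.310 and 0 CPM in R1 (log2 difference 6.39 ± 0.61 SE, adjusted p = 3.91e-08); without R1 at passage 16 it was 127-fold higher.

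Trachea and cuticle genes were called in both directions, and kkv and serp were named after their values were seen. verm, a chitin deacetylase of the trachea, had 24.5, 20.2 and 8.75 CPM in R5 against 0.523, 0.543 and 0.334 CPM in R1 (log2 difference 5.22 ± 0.59 SE, adjusted p = 4.50e-07), and its partner serp had 4.51, 3.93 and 0.775 CPM in R5 against 0.698, 0.543 and 0.584 CPM in R1 (log2 difference 2.32 ± 0.64 SE, adjusted p = 0.00703). kkv, the chitin synthase of the epidermis, had 6.82, 4.37 and 3.21 CPM in R5 against 0.523, 0.931 and 1.42 CPM in R1 (log2 difference 2.31 ± 0.46 SE, adjusted p = 4.60e-04). ple, the tyrosine hydroxylase of cuticle tanning and of dopamine neurons, had 9.24, 17.8 and 5.54 CPM in R5 against 0.785, 0.620 and 2.00 CPM in R1 (log2 difference 3.25 ± 0.66 SE, adjusted p = 5.79e-04), and without R1 at passage 19 the difference was 15.1-fold. dpy, a giant matrix protein that anchors cuticle, went the other way, with 18.7, 12.4 and 7.64 CPM in R5 against 114, 116 and 139.9 CPM in R1 (log2 difference -3.25 ± 0.36 SE, adjusted p = 5.24e-07). Of 18 tested genes of trachea and cuticle 6 were higher in R5 and 2 lower, with a median of -0.12, so the called members and the median differ in sign, and 10 were not called. The chitinase Cht12, described above and not in this list, was lower in R5.

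Several Notch target genes of the Enhancer of split complex were lower in R5. Values are not given here for other tested members, namely E(spl)m3-HLH, E(spl)m8-HLH, E(spl)mbeta-HLH, E(spl)malpha-BFM and E(spl)m2-BFM, so no statement covers the whole complex. E(spl)mdelta-HLH, a repressor of the Enhancer of split complex, had 1.05, 1.46 and 0.332 CPM in R5 against 18.8, 17.3 and 17.2 CPM in R1 (log2 difference -4.22 ± 0.53 SE, adjusted p = 2.08e-06). E(spl)mgamma-HLH, another repressor of the complex, had 4.93, 7.63 and 5.98 CPM in R5 against 39.8, 35.6 and 43.0 CPM in R1 (log2 difference -2.67 ± 0.25 SE, adjusted p = 2.22e-08). E(spl)m6-BFM, a Bearded family member of the complex, had 8.19, 10.9 and 0.996 CPM in R5 against 80.4, 100.0 and 97.6 CPM in R1 (log2 difference -3.79 ± 0.71 SE, adjusted p = 2.40e-04), and E(spl)m7-HLH was 2.84-fold lower in R5. The receptor N had 453, 359 and 412 CPM in R5 against 645, 612 and 552 CPM in R1 (log2 difference -0.56 ± 0.13 SE, adjusted p = 0.00151). The ligand Delta had 159.5, 141 and 69.8 CPM in R5 against 88.8, 105 and 122 CPM in R1 and did not pass the test (adjusted p = 0.506 in edgeR), nor did Ser, the second ligand (log2 difference 0.53 ± 0.28 SE, adjusted p = 0.147). Su(H), the DNA-binding factor of the pathway, had 32.5, 30.8 and 35.8 CPM in R5 against 30.8, 29.5 and 29.6 CPM in R1 (log2 difference 0.14 ± 0.06 SE, adjusted p = 0.0745). Its co-repressor H, or Hairless, was lower in R5, with 31.1, 29.1 and 35.0 CPM against 89.8, 84.5 and 73.1 CPM in R1 (log2 difference -1.38 ± 0.22 SE, adjusted p = 4.49e-05), and so was the co-activator mam (log2 difference -0.93 ± 0.14 SE, adjusted p = 2.49e-05). In the list of Notch pathway genes 1 of 31 tested members was higher in R5 and 11 were lower, with a median of -0.38. All tested genes gave 17.3% higher and 16.2% lower.

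Secreted activators of the JAK/STAT pathway were higher in R5. The 3 Unpaired cytokines, which bind the receptor Domeless, are neighbours on the X chromosome. upd2 had 28.4, 29.1 and 38.4 CPM in R5 against 1.74, 2.02 and 3.84 CPM in R1 (log2 difference 3.65 ± 0.44 SE, adjusted p = 1.25e-06), and upd3 had 22.5, 23.8 and 29.5 CPM in R5 against 3.49, 2.87 and 3.92 CPM in R1 (log2 difference 2.88 ± 0.39 SE, adjusted p = 4.91e-06). upd1 was lowly expressed, with 65 reads in R5 and 1 in R1, a ratio of 86.0 with a counting interval of 14.9 to 3447. The fitted log2 difference of upd1 was 5.96 with all libraries and 5.35, or 40.9-fold, without R5 at passage 17. Without R1 at passage 16, which holds its only R1 read, it was 7.78, or 219-fold, and this fitted value is no bound. Socs36E, a feedback inhibitor and known target of the pathway, had 312, 347 and 355 CPM in R5 against 149, 117 and 145 CPM in R1 (log2 difference 1.30 ± 0.19 SE, adjusted p = 1.29e-05). The receptor dome (log2 difference 0.26 ± 0.11 SE, adjusted p = 0.0776) and the factor Stat92E (log2 difference -0.31 ± 0.13 SE, adjusted p = 0.0674) did not pass the test. Fitted on the 6 late libraries alone, both were called (adjusted p = 0.0347 for dome and 0.0122 for Stat92E in edgeR). Of the 14 tested JAK/STAT genes 5 were higher in R5 and 3 lower, against 17.3% and 16.2% of all tested genes. Their median was 0.37.

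Of 23 tested genes of FGF, PDGF and VEGF type receptors, their ligands and related receptor kinases, 2 were higher in R5, 8 were lower and 13 were not called, with a median of -0.66. Pvf2 and Pvf3, ligands of the PDGF and VEGF receptor homologue Pvr, were higher in R5. Pvf2 had 279, 297 and 254 CPM in R5 against 117, 102 and 136 CPM in R1 (log2 difference 1.23 ± 0.19 SE, adjusted p = 3.23e-05), while the call of Pvf3 (log2 difference 1.42 ± 0.45 SE, adjusted p = 0.0167) was lost without R5 at passage 19 (adjusted p = 0.0547 in edgeR), R1 at passage 16 (0.0616) or R1 at passage 17 (0.0641). Ddr, a discoidin domain receptor, had 0.630, 0.897 and 0.443 CPM in R5 against 23.2, 23.4 and 13.9 CPM in R1 (log2 difference -4.92 ± 0.59 SE, adjusted p = 1.27e-06), and the receptor Alk had 18.4, 23.9 and 35.3 CPM in R5 against 61.2, 94.8 and 65.6 CPM in R1 (log2 difference -1.52 ± 0.38 SE, adjusted p = 0.00392). Ligands and receptors were not tested against each other. Among the genes of the EGF receptor, Ras and ERK pathway 5 of 33 were higher and 9 lower, with a median of -0.18. For both lists the shares over all tested genes were 17.3% higher and 16.2% lower. The total of 14 calls was 8 without R5 at passage 17 and 7 without R1 at passage 17. Ras85D, whose endogenous reads and any transgenic reads the counts do not separate, had 1466, 1509.7 and 837 CPM in R5 against 1498, 1451 and 1588 CPM in R1 (log2 difference -0.25 ± 0.17 SE, adjusted p = 0.268) and did not pass the test. The EGF-like ligand vn, or Vein, had 51.1, 63.4 and 55.4 CPM in R5 against 24.9, 20.6 and 27.3 CPM in R1 (log2 difference 1.22 ± 0.34 SE, adjusted p = 0.00724). pnt, the ETS factor Pointed activated by ERK, had 292, 276 and 329 CPM in R5 against 596, 613 and 530.3 CPM in R1 (log2 difference -0.95 ± 0.12 SE, adjusted p = 1.23e-06). The receptor Egfr (log2 difference -0.59 ± 0.39 SE, adjusted p = 0.253) and the feedback inhibitor sty (log2 difference -0.41 ± 0.17 SE, adjusted p = 0.0610), which was among the abundant genes at 3115, 2556 and 1947 CPM in R5 and 3601, 3339 and 3211 CPM in R1, did not pass. Egfr was called on the 6 late libraries alone (adjusted p = 0.0208 in edgeR), and sty on the 9 late libraries alone (0.0428), by DESeq2 (0.0479) and without R5 at passage 16 (0.0184 in edgeR).

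Septate junctions are the occluding contacts of fly epithelia. Here 12 of 24 tested members were higher in R5 and 5 lower, against 17.3% and 16.2% of all tested genes. The list had a median of 0.48, and a median of -0.30 at the early passages. Nrx-IV, the transmembrane neurexin of the junction, had 426, 451 and 570.2 CPM in R5 against 224, 219 and 233 CPM in R1 (log2 difference 1.10 ± 0.16 SE, adjusted p = 9.84e-06). The claudin genes pck (43.0, 43.2 and 61.3 CPM in R5 against 23.1, 22.6 and 23.9 CPM in R1) and sinu (75.9, 102 and 112 CPM in R5 against 51.0, 48.9 and 47.0 CPM in R1) were 2.12-fold and 1.97-fold higher. crok, needed to assemble the junction, was 2.14-fold higher, and bou, another protein of the same Ly6 family, was 2.31-fold lower. For Nrx-IV the early mean was 411 ± 34.3 CPM in R5 and 507 ± 105 CPM in R1 (SD, n = 3 each), and the change to the late stage had an adjusted p of 1.54e-04 in edgeR. crb, the apical determinant Crumbs, had 234, 169 and 131 CPM in R5 against 24.8, 27.1 and 41.4 CPM in R1 (log2 difference 2.52 ± 0.38 SE, adjusted p = 1.99e-05), after 318 ± 12.9 CPM in R5 and 651 ± 256 CPM in R1 at the early stage. Adherens junction and polarity genes as a list were split, with 4 of 26 higher in R5 and 9 lower and a median of -0.05, and its 13 calls were 8 without passage 17 of R5 or of R1. CadN, neuronal cadherin, had 368, 291 and 353 CPM in R5 against 830.0, 895 and 853 CPM in R1 (log2 difference -1.35 ± 0.29 SE, adjusted p = 8.30e-04), and the related CadN2 had 0.105, 0.673 and 0.111 CPM in R5 against 12.6, 21.4 and 15.4 CPM in R1 (log2 difference -5.76 ± 1.03 SE, adjusted p = 1.40e-04), or 139-fold without R5 at passage 17.

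Extracellular matrix genes differed in both directions. Mmp1, a secreted matrix metalloproteinase, had 663, 718 and 561 CPM in R5 against 143, 170.5 and 247 CPM in R1 (log2 difference 1.79 ± 0.34 SE, adjusted p = 3.00e-04), and Timp, the inhibitor of these proteases, had 28.6, 61.4 and 25.7 CPM in R5 against 8.20, 7.60 and 8.85 CPM in R1 (log2 difference 2.23 ± 0.56 SE, adjusted p = 0.00351). Mp, the fly collagen of the XV and XVIII type, had 304, 308 and 249 CPM in R5 against 57.0, 69.95 and 69.0 CPM in R1 (log2 difference 2.13 ± 0.45 SE, adjusted p = 7.39e-04). tnc, or Tenectin, an integrin ligand, had 127, 46.8 and 24.4 CPM in R5 against 1.57, 3.33 and 3.34 CPM in R1 (log2 difference 4.58 ± 0.59 SE, adjusted p = 3.27e-06), and without R5 at passage 16 it was 12.8-fold higher. SPARC, a collagen-binding protein of basement membranes, was lower in R5, with 305, 356 and 201 CPM against 788, 951 and 824 CPM in R1 (log2 difference -1.57 ± 0.30 SE, adjusted p = 2.71e-04). The laminin chain LanB1 had 1446, 1225 and 1499 CPM in R5 against 2464, 2581 and 2163 CPM in R1 (log2 difference -0.79 ± 0.19 SE, adjusted p = 0.00237), and trol, the fly perlecan, had 1512, 1342 and 781 CPM in R5 against 2520.2, 2536 and 2666 CPM in R1 (log2 difference -1.09 ± 0.28 SE, adjusted p = 0.00435). Of 25 tested basement membrane and matrix genes 6 were higher in R5 and 8 lower, with a median of 0.29. All tested genes gave 17.3% and 16.2%. Integrins and their partners were higher in 7 of 24 and lower in 2, with a median of 0.17, led by the alpha subunit scb with 156, 192 and 203 CPM in R5 against 80.4, 71.4 and 62.2 CPM in R1 (log2 difference 1.37 ± 0.28 SE, adjusted p = 7.04e-04).

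Cell surface proteins of the immunoglobulin and leucine-rich repeat families, many of them neuronal recognition molecules, were lower in R5 for 36 of 79 tested members. Another 9 were higher, against 16.2% lower and 17.3% higher over all tested genes, and the list median was -0.54. DIP-epsilon had 5.88, 5.27 and 4.76 CPM in R5 against 92.0, 90.0 and 114 CPM in R1 (log2 difference -4.21 ± 0.39 SE, adjusted p = 2.99e-08). dpr17, of the Dpr family that binds DIP proteins, went the other way with 198, 102 and 55.0 CPM in R5 against 2.97, 2.95 and 4.59 CPM in R1 (log2 difference 5.08 ± 0.53 SE, adjusted p = 2.19e-07), or 22.4-fold without R5 at passage 16, and klg had 95.9, 90.7 and 29.3 CPM in R5 against 2.62, 3.80 and 3.17 CPM in R1 (log2 difference 4.49 ± 0.46 SE, adjusted p = 1.50e-07). Gene length moved with the difference. Over 8 classes of all tested genes by annotated length, the median log2 difference was 0.17 in the shortest and -0.19 in the longest class, and 26.7% and 45.5% of their genes were called. The median length of the tested immunoglobulin and leucine-rich repeat genes was 35132 bases. The part of length in these list counts was not tested.

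**Figure D3:**
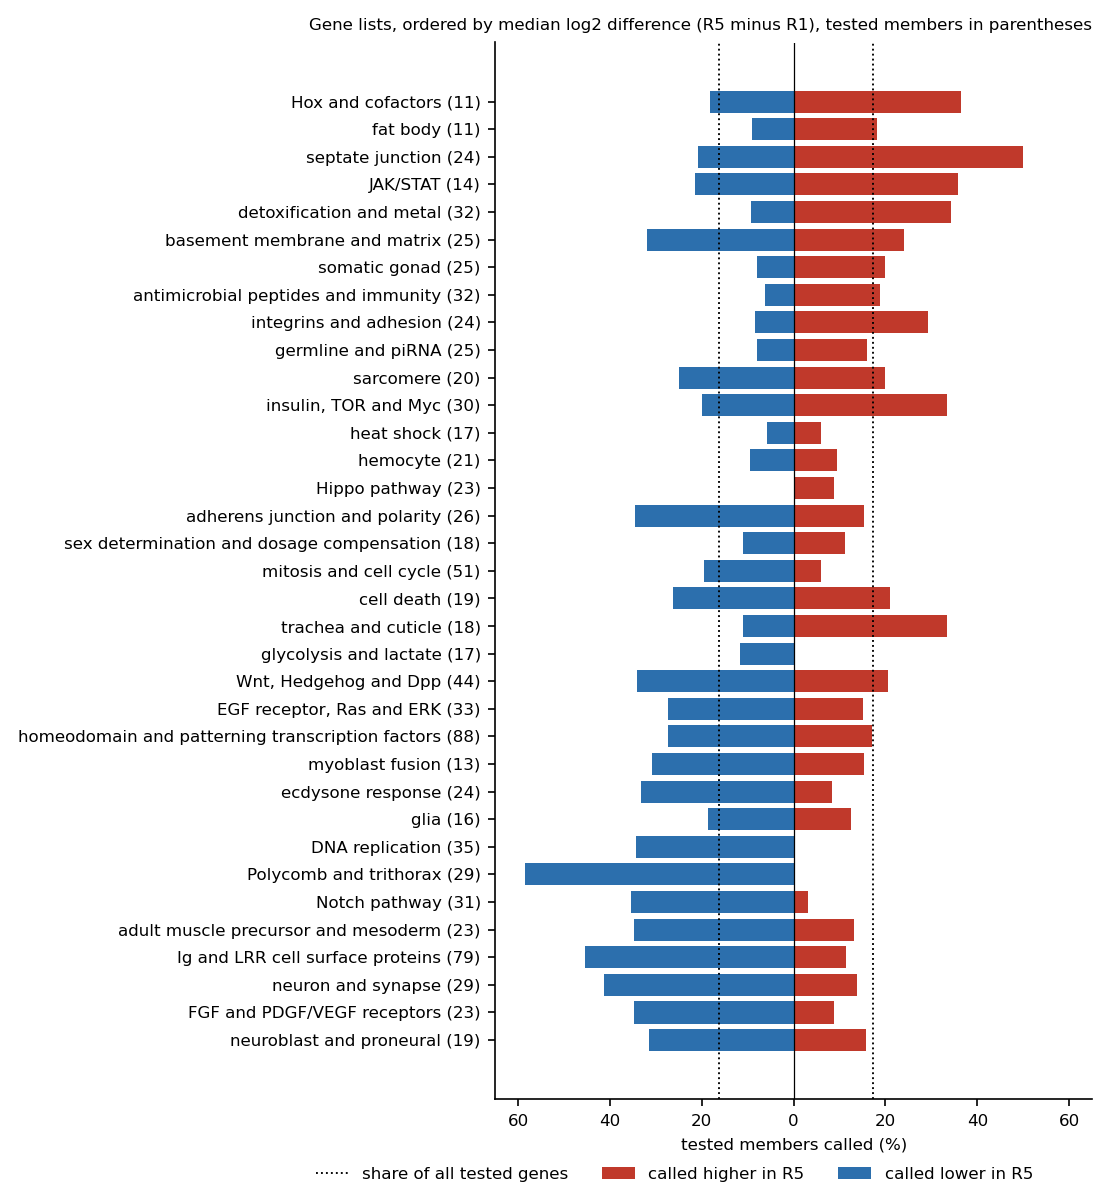
Percent of the tested members of 35 gene lists called higher (red, right) or lower (blue, left) in R5 than in R1, ordered by median log2 difference, with the number of tested members in parentheses. Dotted lines mark the shares over all tested genes, 17.3% higher and 16.2% lower, and septate junction genes stand above the first and Polycomb and trithorax genes above the second.

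Markers of other cell types were set beside these differences. Of 6 neuronal markers 5 were lower in R5, with a summed level of 161 to 169 CPM in R5 and 217 to 224 CPM in R1, most of it from elav at 156, 152 and 144 CPM in R5 and 197, 187 and 189 CPM in R1 (log2 difference -0.34 ± 0.08 SE, adjusted p = 0.00312). fne, an RNA-binding protein of the Elav family, had 0.525, 0.224 and 0.554 CPM in R5 against 11.0, 11.9 and 10.1 CPM in R1 (log2 difference -4.62 ± 0.57 SE, adjusted p = 1.78e-06). SoxN, a factor of the neural primordium, had 0.420, 0.561 and 0.886 CPM in R5 against 13.2, 25.6 and 19.9 CPM in R1 (log2 difference -4.96 ± 0.52 SE, adjusted p = 2.29e-07), and the early mean was 9.44 ± 2.51 CPM in R5 and 8.04 ± 2.29 CPM in R1. Of the 12 markers of muscle and its precursors 11 were tested, 1 was higher in R5 and 4 were lower, and they summed to 457 to 808 CPM in R5 and 1427 to 1515 CPM in R1. Of 11 hemocyte markers 1 was higher and 0 lower, and they summed to 953 to 1179 CPM in R5 and 831 to 1270 CPM in R1. Of 5 epithelial markers 3 were higher and 1 lower, summing to 1713 to 1828 CPM in R5 and 1278 to 1323 CPM in R1. Of 6 neuroblast markers 1 was higher and 2 lower (26.8 to 38.0 CPM in R5, 19.3 to 25.4 CPM in R1), and of 5 glial markers 1 was higher and 1 lower (584 to 595 CPM in R5, 658 to 665 CPM in R1). Germline markers summed to 27.5 to 45.7 CPM in R5 and 14.2 to 29.6 CPM in R1, and 2 of 3 tested were higher. Somatic gonad markers, namely tj, fax and zfh1, summed to 2358 to 2965 CPM in R5 and 2586 to 2943 CPM in R1. Since tj was below 1 CPM in all 6 libraries, nearly all of this came from fax and zfh1. Of the 3 tested 0 were higher and 1 lower, namely zfh1, which is also among the muscle markers. Fat body markers summed to 7.24 to 18.5 CPM in R5 and 8.30 to 8.46 CPM in R1, with no read of Fbp1, and tracheal markers to 48.8 to 109 CPM in R5 and 81.0 to 146 CPM in R1, with no read of kni. Some marker calls were lost with single libraries left out. The call of rost, the only higher muscle marker, was lost in 5 of 6 such fits (adjusted p = 0.0565 to 0.113 in edgeR), and so was that of moody, the only higher glial marker (0.0583 to 0.143). The germline markers nanos and aub both lost the call without R5 at passage 17 (0.0714 and 0.0550) or R1 at passage 17 (0.0688 and 0.0900), leaving 0 of 3, and aub also without R1 at passage 16 (0.0805). zfh1, lower in R5, lost it without R5 at passage 17 (0.0542). The lower epithelial marker shg lost it without R5 at passage 16 or 17 or R1 at passage 17 (0.0561 to 0.0719). The lower neuroblast marker wor lost it without R5 at passage 16 or 17 (0.0611 and 0.0613). The part of cell type mixture in the differences was not tested.

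Genes of the adult muscle precursor and mesoderm list were lower in R5 for 8 of 23 tested members and higher for 3, with a median of -0.53. For this and the next lists the shares over all tested genes were 16.2% lower and 17.3% higher. kirre, an adhesion protein of muscle founder cells, had 92.5, 74.8 and 110.1 CPM in R5 against 452, 407 and 362 CPM in R1 (log2 difference -2.14 ± 0.33 SE, adjusted p = 2.87e-05). twi, the mesoderm factor Twist, had 131, 137 and 30.8 CPM in R5 against 202, 229 and 228 CPM in R1 and did not pass the test (log2 difference -1.14 ± 0.53 SE, adjusted p = 0.0976), with the R5 library of passage 19 far below the other two. Mef2 was called lower in R5 (log2 difference -0.59 ± 0.18 SE, adjusted p = 0.0127), but the call was lost without R5 at passage 16 (adjusted p = 0.0530 in edgeR), R5 at passage 17 (0.0896) or R1 at passage 17 (0.0597). Of the 13 tested myoblast fusion genes 2 were higher and 4 lower, with a median of -0.21, and of 20 sarcomere genes 4 were higher and 5 lower, with a median of 0.04. bt, a giant titin-like kinase, had 32.1, 30.8 and 48.8 CPM in R5 against 165, 179 and 250.5 CPM in R1 (log2 difference -2.41 ± 0.44 SE, adjusted p = 1.91e-04). Among the neuron and synapse genes 4 of 29 were higher and 12 lower, with a median of -0.57, and among neuroblast and proneural genes 3 of 19 and 6, with a median of -0.70. insc, which orients the division of neuroblasts, was higher in R5, with 27.3, 23.1 and 33.8 CPM against 6.89, 6.59 and 7.68 CPM in R1 (log2 difference 1.99 ± 0.36 SE, adjusted p = 1.80e-04). Hemocyte genes were higher for 2 of 21 and lower for 2, with a median of -0.00, and lz, the Runx factor of crystal cells, had 13.3, 12.9 and 5.65 CPM in R5 against 0.349, 0.233 and 0.250 CPM in R1 (log2 difference 5.21 ± 0.84 SE, adjusted p = 4.39e-05). Glial genes were higher for 2 of 16 and lower for 3, with a median of -0.27, and the 5 calls were 3 without R5 at passage 17 or 19 or R1 at passage 17. Fat body genes were higher for 2 of 11 and lower for 1, with a median of 0.68. Somatic gonad genes were higher for 5 of 25 and lower for 2, with a median of 0.24, and esg, the factor Escargot, had 17.9, 11.1 and 6.75 CPM in R5 against 0.959, 1.16 and 0.584 CPM in R1 (log2 difference 3.71 ± 0.44 SE, adjusted p = 9.44e-07). Germline and piRNA genes were higher for 4 of 25 and lower for 2, with a median of 0.12, and the 6 calls were 3 without R5 at passage 17 and 2 without R1 at passage 17.

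Chromatin repressors of the Polycomb group keep Hox genes silent, and trithorax group proteins keep them active. Of 29 tested members of both groups 17 were lower in R5 and 0 higher, against 16.2% and 17.3% of all tested genes. Their median was -0.33, and the differences were small. Su(z)12, a subunit of the complex that methylates histone H3, had 23.5, 20.6 and 23.5 CPM in R5 against 50.6, 49.2 and 46.6 CPM in R1 (log2 difference -1.11 ± 0.18 SE, adjusted p = 4.29e-05). Sce, the ubiquitin ligase of the other Polycomb complex, had 10.5, 10.3 and 10.3 CPM in R5 against 17.4, 20.1 and 18.7 CPM in R1 (log2 difference -0.85 ± 0.12 SE, adjusted p = 4.81e-06), and its partners Pc and Psc were 1.46-fold and 1.55-fold lower. trx, the activator Trithorax, had 447, 401 and 441 CPM in R5 against 775, 709 and 696 CPM in R1 (log2 difference -0.76 ± 0.11 SE, adjusted p = 1.20e-05). For each of these 5 genes the 3 R5 libraries lay below the 3 R1 libraries. At the early stage 2 of the 29 were lower in R5. ph-p and ph-d are near-identical copies whose counts are uncertain.

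Growth and division genes showed small differences. DNA replication genes were lower in R5 for 12 of 35 tested members and higher for 0, with a median of -0.29, but the 12 calls were 7 without R5 at passage 17 or 19 and 5 without R1 at passage 17. PolE1, the catalytic subunit of DNA polymerase epsilon, had 114, 105 and 119 CPM in R5 against 173, 177 and 171 CPM in R1 (log2 difference -0.63 ± 0.11 SE, adjusted p = 8.99e-05). Mitosis and cell cycle genes were higher for 3 of 51 and lower for 10, with a median of -0.09. dap, the inhibitor of the Cyclin E kinase, had 65.2, 60.5 and 48.8 CPM in R5 against 106, 118 and 96.7 CPM in R1 (log2 difference -0.88 ± 0.20 SE, adjusted p = 0.00140). Klp61F, a mitotic kinesin, had 353, 266 and 388 CPM in R5 against 173, 202 and 222 CPM in R1 (log2 difference 0.75 ± 0.12 SE, adjusted p = 3.40e-05). Insulin, TOR and Myc genes were higher for 10 of 30 and lower for 6, with a median of 0.02, and Mnt, the antagonist of Myc, had 134, 117 and 127 CPM in R5 against 303, 246 and 222 CPM in R1 (log2 difference -1.03 ± 0.14 SE, adjusted p = 5.04e-06). Of 87 cytosolic ribosomal protein genes 4 were higher and 10 lower, with a median of -0.09, while of 72 mitochondrial ribosomal protein genes 21 were higher and 0 lower, with a median of 0.21. Small nucleolar RNAs were higher for 60 of 152 and lower for 3, with a median of 0.54, against 17.3% higher and 16.2% lower over all tested genes. Their share of counts was 1.64 to 2.12% in R5 and 1.22 to 1.55% in R1. Other noncoding classes also had medians above 0, at 0.74 for ribosomal RNA entries, 0.82 for small nuclear RNAs and 0.80 for transfer RNAs. The median of mRNA genes was 0.01. The cause of this shift between classes was not tested.

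Cell death, immunity, ecdysone and detoxification genes were called in both directions. egr, the tumour necrosis factor Eiger, had 29.6, 31.6 and 33.9 CPM in R5 against 198, 243 and 199.9 CPM in R1 (log2 difference -2.75 ± 0.45 SE, adjusted p = 5.50e-05), and its receptor wgn was 1.91-fold lower. hid, an activator of apoptosis that ERK signalling restrains, had 39.4, 35.6 and 31.1 CPM in R5 against 107, 87.7 and 74.1 CPM in R1 (log2 difference -1.34 ± 0.25 SE, adjusted p = 2.71e-04). Of 19 tested cell death genes 4 were higher and 5 lower, with a median of -0.12. Tl, the receptor Toll, had 33.4, 32.1 and 20.5 CPM in R5 against 170.4, 197 and 97.4 CPM in R1 (log2 difference -2.43 ± 0.29 SE, adjusted p = 1.02e-06), while its nuclear effector dl, or Dorsal, had 86.5, 83.1 and 67.5 CPM in R5 against 35.6, 33.4 and 35.4 CPM in R1 (log2 difference 1.18 ± 0.18 SE, adjusted p = 2.14e-05). Antimicrobial peptide and immunity genes were higher for 6 of 32 and lower for 2, with a median of 0.24, so that 8 of 32 were called, below the 33.5% of all tested genes. Ecdysone response genes were higher for 2 of 24 and lower for 8, with a median of -0.23, and br, the Broad factor induced by the hormone, had 258, 187 and 302 CPM in R5 against 826, 681 and 573 CPM in R1 (log2 difference -1.48 ± 0.22 SE, adjusted p = 1.59e-05). Detoxification and metal genes were higher for 11 of 32 and lower for 3, with a median of 0.34, and the 14 calls were 9 without R1 at passage 17. GstE3, a glutathione transferase of a multicopy family whose counts are therefore uncertain, had 32.9, 29.2 and 29.6 CPM in R5 against 5.15, 4.34 and 7.01 CPM in R1 (log2 difference 2.47 ± 0.48 SE, adjusted p = 3.92e-04).

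Some lists showed few calls. Hippo pathway genes were higher for 2 of 23 and lower for 0, with a median of -0.03, and 1 was left without R5 at passage 17 or any R1 library. Heat shock genes were higher for 1 of 17 and lower for 1, with a median of 0.00. Glycolysis and lactate genes were lower for 2 of 17 and higher for 0, with a median of -0.16, and 0 calls were left without R5 at passage 17 or R1 at passage 16 or 17 and 1 without R5 at passage 16 or 19. Sex determination and dosage compensation genes were higher for 2 of 18 and lower for 2, with a median of -0.09, and 1 call was left without R5 at passage 16. lncRNA:roX1, a noncoding RNA of the male dosage compensation complex, had 1367, 1304 and 1451 CPM in R5 against 1515, 1279.9 and 1338 CPM in R1, and lncRNA:roX2 had 293, 275 and 278 CPM in R5 against 273, 256 and 269 CPM in R1. The groups overlapped for roX1 but not for roX2 (adjusted p = 0.995 and 0.799 in edgeR). msl-2 and Sxl did not pass the test either (adjusted p = 0.946 and 0.519 in edgeR).

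The genes higher in R5 were not spread evenly over the chromosomes. Along arm 3L the running median of the log2 difference over each gene and its 50 tested neighbours on either side was at least 0.3 for the first 284 of the 1675 tested genes of the arm, from mthl8 at the distal end to CG14961. This stretch was delimited after its values were seen, so it is a description with no test. Its median log2 difference was 0.53, which is 1.45-fold, with quartiles of 0.26 and 0.78, and 240 of the 284 genes, 84.5%, were above 0. Of these genes 167 were called higher in R5, 58.8%, and 11 lower, against 17.3% and 16.2% of all tested genes, and they made up 10.5% of all genes called higher. The rest of 3L had a median of 0.10, and the medians of X, 2L, 2R and 3R lay between -0.03 and 0.03. In successive blocks of 50 genes from the distal end the median was 0.49, 0.41, 0.67, 0.59, 0.49 and 0.45, and -0.03 in the block after these. The edge is not sharp, since the block of genes 401 to 450 of the arm had a median of 0.42 with 20 genes called higher, and the remaining blocks reached up to 0.29.

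**Figure D4:**
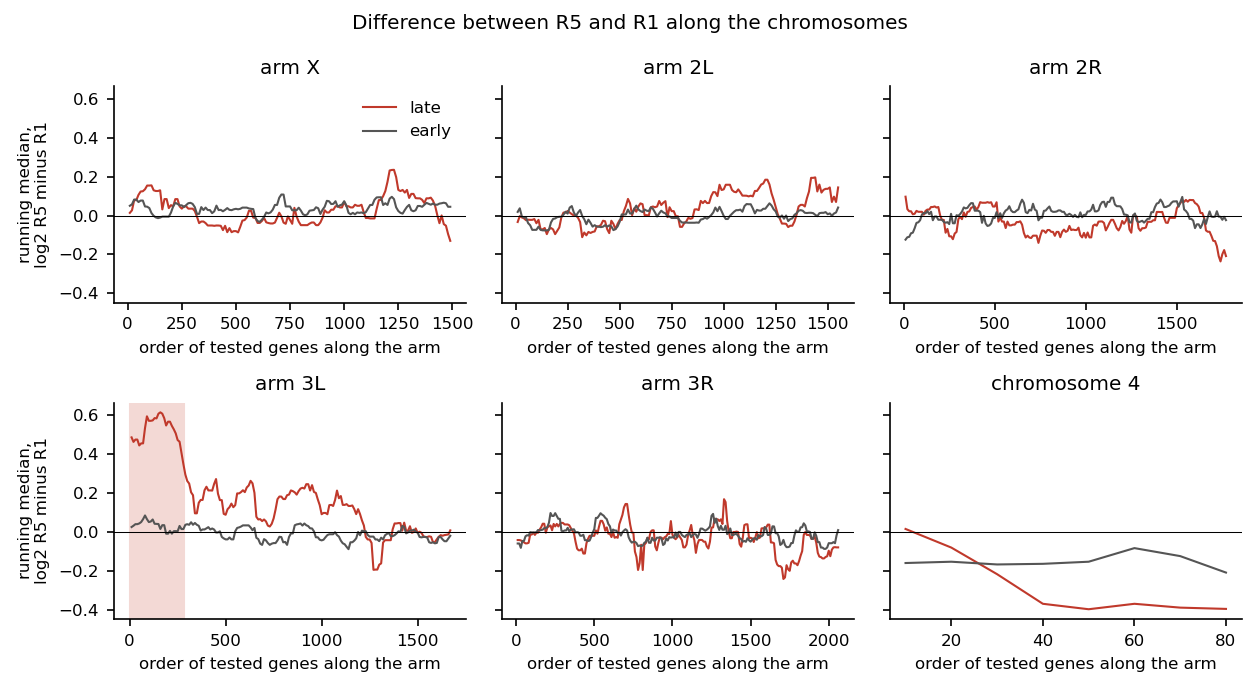
Running median of the log2 difference, R5 minus R1, over each gene and its 50 neighbours on either side (15 on chromosome 4) against the order of tested genes along each arm, for the late (red) and early (grey) libraries. The shaded first 284 genes of 3L stay above 0.3 at the late stage and near 0 at the early stage, and chromosome 4 lies below 0 over most of its length.

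The stretch was above 0 in each late pair of libraries. Computed per passage on log2(CPM + 1), its median was 0.60 at passage 16, 0.46 at passage 17 and 0.35 at passage 19. At the early passages the fitted median was 0.04 and at the intermediate passages 0.19. Against R4 at the late stage the median was 0.46 for R5 and -0.03 for R1, comparisons that share libraries with the one above. For the 204 genes of the stretch with a mean of at least 10 CPM, the median deviation from the mean of all libraries was -0.23, -0.16 and -0.08 in R5 at passages 2, 3 and 4, then 0.25, 0.23 and 0.32 at passages 6, 7 and 8, and 0.57, 0.43 and 0.39 at passages 16, 17 and 19. In R1 it was -0.20 at passage 2, 0.10 at passage 8, and -0.08, -0.06 and 0.02 at passages 16, 17 and 19. In R4 it was -0.20 at passage 2 and -0.04, -0.01 and 0.03 at passages 16, 17 and 19. The low start was thus shared by the lines. Listed genes in the stretch include Klp61F, described above, and Cht2, a chitinase with 142, 156 and 276 CPM in R5 against 116, 126 and 147 CPM in R1 (log2 difference 0.56 ± 0.17 SE, adjusted p = 0.0120), whose call was lost without R5 at passage 19 (adjusted p = 0.238 in edgeR) or R1 at passage 16 (0.0612). Both were higher in R5, while the neuronal marker nSyb, also in the stretch, was called lower. The lists place further genes there. Gene copy number was not analysed here.

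Chromosome 4, the small heterochromatic chromosome of the fly, went the other way. Its 80 tested genes had a median log2 difference of -0.32, which is 0.801-fold, and 71.3% of them were below 0, with 37 called lower in R5 and 2 higher. Per passage the median was -0.38 at passage 16, -0.26 at passage 17 and -0.31 at passage 19. At the early passages it was -0.16 and at the intermediate passages -0.13. For the 63 genes with a mean of at least 10 CPM, the median deviation from the mean of all libraries was -0.35, -0.29 and -0.30 in late R5, against -0.01, -0.01 and -0.04 in late R1. The median annotated length of the tested chromosome 4 genes was 9543 bases, so that they are longer than the genes of the other arms, at 2644 to 3225 bases. toy, ey and bt, described above, lie on this chromosome, and their differences were larger than its median.

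**Figure D5:**
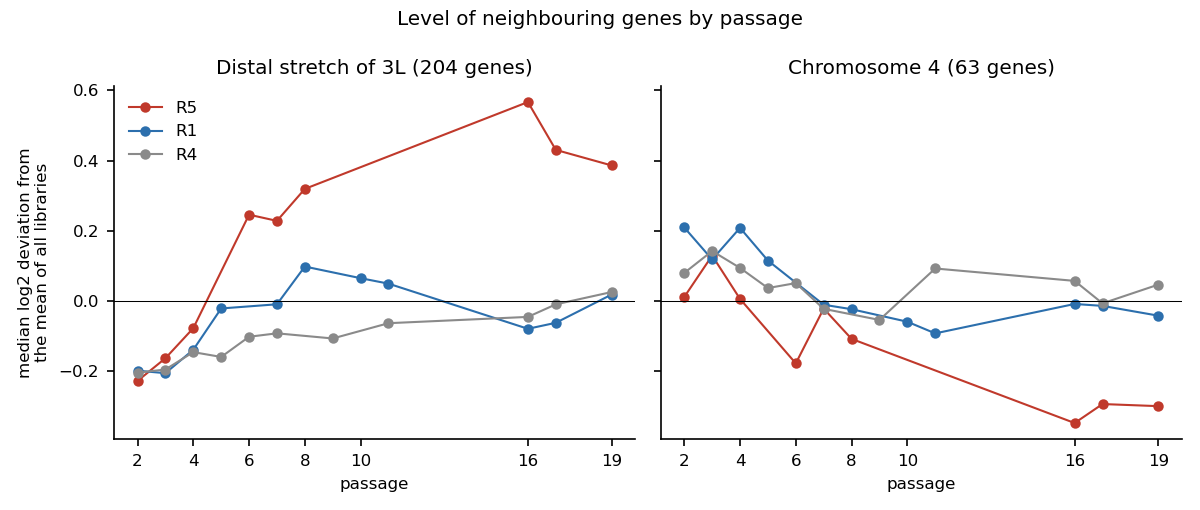
Median log2 deviation from the mean of all libraries against passage for 204 genes of the distal 3L stretch (left) and 63 genes of chromosome 4 (right) in R5 (red), R1 (blue) and R4 (grey). R5 departs upward on 3L from passage 6. On chromosome 4 R5 is at -0.18, -0.02 and -0.11 at passages 6, 7 and 8 and lowest at the late passages. R1 and R4 stay within 0.1 of 0 in both panels at the late passages.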

How the data were processed

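The deposited files hold raw counts, 1 count per gene and library. Per the submitters' processing notes, bedtools, TopHat 1.4.1 and Bowtie 0.12.8 were the authors' tools, with BDGP5 (dm3) as the build. How reads were counted, whether strand was used and which annotation applied was not given in the sources consulted. Counts of antisense, overlapping or multicopy genes are therefore uncertain, and no coordinates or sequences are given. Each file lists 15253 entries. The 2 that name no gene held 0.0123 to 0.0187% of the counts and were left out. Symbols, arms and gene order came from the BDGP6.54 annotation, matched by gene ID for 9370 genes, locus tag for 5002 and synonym for 95, while 784 kept the name in the file.

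Counts of 31 libraries in 9 groups of line and stage were scaled by TMM and fitted with edgeR 4.0.16 (robust quasi-likelihood F test, R 4.3.3) with 22 residual degrees of freedom. Genes with at least 1 CPM in at least 3 libraries were tested, and p-values were adjusted over all of them by the Benjamini-Hochberg method at 0.05. R4 at passage 12, outside the stages of the series text, was left out. The standard error (SE) of a log2 difference was its size divided by the square root of F. Total counts of the 31 libraries ran from 7760446 to 18213927, and no 2 libraries were identical. Counting intervals (exact, 95%) and the floor of 3 counts over a group cover counting error only, since there were no molecular identifiers. The fit was tested on simulated data. Alternatives were the scaling, the filter, limma 3.58.1, DESeq2 1.42.0, the late libraries alone, passage as a block and each library left out.

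The comparison, the gene lists and the rule for named genes were chosen with earlier results of these data known. The rule took the 12 highest and 12 lowest log2 differences among called genes that did not overlap between the lines, with at least 10 CPM in the higher line, up to 4 called members per list with at least 5 CPM (where none was called, the most abundant member), the 6 strongest changes in each direction of the interaction with at least 10 CPM, and 25 genes in every case. Genes named after their values were seen were Dfd, ey, upd1, Pvf2, Mmp1, LanB1, trol, H, mam, sinu, kkv, serp, arr, dally, dlp, Cow, SPARC, Pc, Psc, dome, Stat92E, Su(H), Mp, and the neighbours of leading genes. A Y chromosome list had no tested member.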

Additional observations from a re-analysis of the deposited data

Results flagged for a closer look

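The difference between R5 and R1 itself changed between passages 2 to 4 and passages 16 to 19 for 1044 genes, by the interaction test of the edgeR fit over 31 libraries. The values below are the change of the log2 difference, R5 minus R1, from early to late, so a positive value means a move toward R5. The sign does not tell which line changed, since a fall in R1 and a rise in R5 both give a positive value. The early passages cannot serve as a separate check of the late ones, since each line is 1 culture.

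Among the positive changes, lbe changed by 10.49 ± 1.53 SE, adjusted p = 1.12e-04, with no read left in late R1, so that this fitted value is no bound. Wnt4 changed by 6.73 ± 0.60 SE, adjusted p = 1.51e-07 and wg by 6.56 ± 1.19 SE, adjusted p = 7.53e-04. For both genes late R1 lay far below early R1, as given above. Pcp changed by 7.43 ± 1.25 SE, adjusted p = 3.09e-04, or 8.47 without R5 at passage 4 and 6.59 without R1 at passage 4. CG13403, an uncharacterised gene, changed by 6.54 ± 1.38 SE, adjusted p = 0.00308, with 7.87, 63.1 and 103 CPM in late R5 and 1.13, 1.01 and 0.835 CPM in late R1. Its change was 5.85 without R5 at passage 19 and 5.84 without R1 at passage 4. CG8303, also uncharacterised, changed by 7.58 ± 1.24 SE, adjusted p = 2.41e-04, but late R1 held only 3 reads of it, all at passage 19. Without R5 at passage 16 the change was 6.99. Without R1 at passage 19 it was 10.67, but no late R1 read was then left, so that this fitted value is no bound.

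Among the negative changes, tok changed by -6.42 ± 0.63 SE, adjusted p = 3.72e-07, its neighbour tld by -6.46 ± 0.60 SE, adjusted p = 1.51e-07 and Drl-2 by -6.65 ± 0.95 SE, adjusted p = 6.66e-05. CngA changed by -7.09 ± 0.90 SE, adjusted p = 1.99e-05, or -7.78 without R5 at passage 17. Cht12 changed by -10.55 ± 1.70 SE, adjusted p = 2.46e-04, or -11.43 without R5 at passage 19, but early R1 held no read of it, so that this fitted value is no bound either. Nmdar2, a subunit of the NMDA type of glutamate receptor, changed by -6.35 ± 1.02 SE, adjusted p = 1.96e-04, or -5.70 without R5 at passage 2. It averaged 15.5 ± 10.8 CPM in R5 and 4.48 ± 2.02 CPM in R1 at the early passages (SD, n = 3 each), and had 0.210, 0.673 and 0.332 CPM in late R5 against 7.24, 11.6 and 10.4 CPM in late R1.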

How the results depend on the processing

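The count of genes called between late R5 and late R1 was 2580 to 3512 over the other scalings, filters, tools and sample sets, and 2314 to 2627 with 1 late library left out. Scaling to total counts gave 1459 higher and 1509 lower calls, 1 read as the only filter gave 1350 higher and 1573 lower, against 1585 and 1485. At least 2-fold, 744 genes were called under the stricter filter of 5 CPM. For the early passages 655 genes were called with DESeq2 and 135 to 427 with a library left out, and for the interaction 674 to 1121. Deviations of same-numbered libraries of R5 and R1 from their group means correlated across genes at -0.09, -0.01 and -0.05 for passages 16, 17 and 19. Across all genes no shared deviation by passage number was thus seen. With so few libraries a line, this cannot exclude one for part of the genes. With passage as a block 2580 genes were called at late from 6 libraries and 3256 from 9, 485 at early and 1012 for the interaction. The median of 3L was 0.10, 0.12 and 0.14 for passages 16, 17 and 19 alone on log2(CPM + 1), against 0.17 fitted, and that of chromosome 4 was -0.26 at passage 17. Of 176 called genes named here or in the lists' rule, 143 kept direction and call in all 16 settings and 33 lost the call in at least 1. Of 20 uncalled genes 9 were called in at least 1 setting, namely Egfr, sty, dome, Stat92E, Ser, Su(H), Him, srp and Fas3. With passage as a block and 9 libraries, Egfr (adjusted p = 0.0162), sty (0.0324), dome (0.0167), Stat92E (0.0109) and srp (0.0178) were called in edgeR. Of 35 list counts 15 moved by over 1.5 times. Values near 0 turned sign for 4 uncalled genes. The log2 difference of roX1 was 0.0080 under the stricter filter, 0.0028 with the 9 late libraries alone, and -0.055 to 0.069 with a library left out. That of msl-2 was -0.020 without a filter and -0.026 to 0.057 with a library left out, that of Sxl -0.010 to 0.34 and that of Hml -0.0010 to 0.69. The cause of these shifts was not tested. Depth limits what can be said of genes near 1 CPM.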

Other observations

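Genes beside the 24 leading genes were looked up in annotation order, and the 3 pairs named here were chosen after their values were seen. Of 45 neighbours that are no leading gene 19 were tested and 11 called in edgeR, against 33.5% of all tested genes. Of the 11, 7 went in the direction of the leading gene and 4 in the other. The 3 pairs described here all belong to the 7. Next to Fam92, vir-1, a gene induced by viral infection, had 316, 255 and 176 CPM in late R5 against 90.2, 100.2 and 83.7 CPM in late R1 (log2 difference 1.44 ± 0.26 SE, adjusted p = 1.75e-04, edgeR). Next to CG8492, Snmp2, a CD36-related membrane protein, had 10.1, 3.81 and 0.996 CPM in R5 against 0.349, 0.233 and 0.501 CPM in R1 (log2 difference 3.75 ± 0.75 SE, adjusted p = 4.78e-04), or 6.53-fold higher without R5 at passage 16. Next to Kr, CG9380 had 1.05, 1.35 and 0.996 CPM in R5 against 6.28, 8.61 and 10.0 CPM in R1 (log2 difference -2.87 ± 0.49 SE, adjusted p = 8.90e-05). Among transcript classes, 11 of 39 ribosomal RNA entries and 6 of 16 small nuclear RNAs were higher in R5, as were 3 of 19 transfer RNAs and 8 of 38 pseudogenes. In each of these classes 0 were lower, against 17.3% higher and 16.2% lower over all tested genes. Ribosomal RNA entries held 6.00 to 7.69% of the counts in R5 and 5.44 to 6.07% in R1. The efficiency of the depletion in each library was not tested.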
